A study of Mus musculus with 8 samples.

Results

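The genes described here are named for proteins of the cytosolic ribosome, and copies and relatives with such names are among them. They were chosen by name from the 2 deposited tables of gene values: every gene whose symbol starts with Rpl or Rps and a digit, together with Rplp0, Rplp1, Rplp2 and Rpsa, without symbols marked as pseudogenes (-ps), without the kinase and binding protein genes that share the prefix and without the Rps27 copy Rps27rt, while the similarly named Rpl37rt was kept. The rule found 91 of the 25676 genes listed in both tables, and 86 of them had a mean normalized count of at least 10 in both, of 13629 such genes in all. Of the 86, 81 have a protein-coding transcript in the reference annotation, GENCODE M21, and Rpl32l, Rps3a2, Rps3a3, Rpl37rt and Rpl6l have none. RNA was sequenced from 4T1 cells, a mouse line of triple-negative breast cancer, in 4 groups of 2 libraries: Con, sdAb#07.81 (24 h), sdAb#07.81 (48 h) and sdAb-Con (48 h). The treated cells received 0.5 μg/mL of purified single-domain antibody, and all groups were grown in 1% oxygen. Antibody sdAb#07.81 binds NUPR1, a small stress-response protein, and carries a degron that sends its target for destruction. sdAb-Con is its control antibody. The libraries come from 1 cell line, and nothing in the sources used here says whether the 2 libraries of a group came from separate cultures.

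A ribosome is built from a large and a small subunit, each holding its own set of proteins on a scaffold of ribosomal RNA. Cells make the proteins in matched amounts, and proteins left without a place in a ribosome are degraded. Their mRNAs are short, abundant and, in mammals, begin with a C followed by a run of pyrimidines, the 5′ terminal oligopyrimidine (TOP) tract. Through this tract the mTORC1 kinase and the RNA-binding protein Larp1 set how much of the mRNA is translated or stored. Ribosomal protein synthesis rises with growth signals and with the transcription factor Myc.

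The value used from each table was the authors' mean for each gene over 4 libraries of counts divided by size factors. These means carry no spread between libraries, and no difference below was tested. The table called the 24 h table here averages sdAb#07.81 (24 h) with sdAb#07.81 (48 h). The table called the sdAb-Con table averages sdAb-Con (48 h) with the same sdAb#07.81 (48 h) libraries. Since the sdAb#07.81 (48 h) group stands in both, a gene that is higher in the sdAb-Con table had a higher mean in the sdAb-Con (48 h) group than the sdAb#07.81 (24 h) group had, apart from the separate normalization of the tables. Averaging with a shared group also makes the fold between the tables smaller than the fold between those 2 groups. That comparison mixes antibody with time of treatment, and the 2 cannot be told apart in it. The tables' columns on the authors' own comparisons, standard errors among them, were not used.

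The mean counts summed to 17867752 in the sdAb-Con table and 17900221 in the 24 h table. These are normalized counts on the listed genes, not the sequencing depth of the libraries. The epithelial markers Krt8, Krt18, Krt19, Epcam and Cdh1 were all present, with means from 2234 (Krt19) to 14377 (Cdh1) in the 24 h table, from 2441 (Krt19) to 15180 (Cdh1) in the sdAb-Con table, and all 5 differed by less than 1.2-fold between tables. Ptprc, Cd3e, Lyz2 and Pecam1, markers of immune and endothelial cells, lay between 0.27 and 7.15 in both tables. Col1a1, the fibroblast collagen gene, was at 150 and 174. Nupr1, the antibody's target gene, had a mean of 2373 in the 24 h table and 2990 in the sdAb-Con table, a log2 ratio of 0.33. A loss of the protein by the degron would not be seen in these values.

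The start of a TOP mRNA is shown for 7 genes whose tract is easy to see, with Rpl7l1 as the gene whose ratio between the tables lay opposite to the rest. Each line is the sense strand from 15 bases before to 14 bases after a RefSeq start, with the longest tract within 10 bases of the start in capitals. In Rpl35 and Rpl22l1 the run of pyrimidines goes on past that limit. Rpl35a has 3 annotated starts, of which the one with a tract is shown, and each of the other genes shown has 1.
Rpl28: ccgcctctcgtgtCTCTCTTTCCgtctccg
Rps6: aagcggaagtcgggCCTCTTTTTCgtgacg
Rplp2: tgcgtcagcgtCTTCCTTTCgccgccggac
Rpl35: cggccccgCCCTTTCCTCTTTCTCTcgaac
Rpl35a: gcggggcttgCCTTCCTCTTTCCgccatct
Rps10: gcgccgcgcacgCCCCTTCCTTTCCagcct
Rpl22l1: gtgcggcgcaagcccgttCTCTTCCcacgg
Rpl7l1: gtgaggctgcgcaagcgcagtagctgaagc
The windows lie, on GRCm38.p6, at chr7:4792950-4792979 on the plus strand for Rpl28, chr4:86857353-86857382 on the minus strand for Rps6, chr7:141447636-141447665 on the plus strand for Rplp2 and chr2:39005117-39005146 on the minus strand for Rpl35. They lie at chr16:33056467-33056496 on the plus strand for Rpl35a, chr17:27635230-27635259 on the minus strand for Rps10, chr3:28805493-28805522 on the plus strand for Rpl22l1 and chr17:46782642-46782671 on the minus strand for Rpl7l1. The motif searched was a C followed by at least 5 pyrimidines, within 10 bases of the start on either side, and 67 of the 91 genes had a promoter entry. It was found in 33 of those 67 genes, or 49.3%, against 17.4% of all 27025 genes with an entry, where a gene counted if any of its starts matched. Of the 67 genes 10 had more than 1 start, and among the 57 with a single start 26 held the motif, or 45.6%, against 14.8% of all 22862 such genes, a split chosen after seeing the data. On the opposite strand the same search found it in 6 of the 67 genes, or 8.96%, against 19.2% of all genes. A match is a run of letters near an annotated start, which may differ from the start used in 4T1 cells.

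By level, the ribosomal protein genes held 5.51% of all mean counts in the 24 h table and 7.55% in the sdAb-Con table. If both tables are on 1 scale, the sdAb-Con (48 h) group had the higher share, by 4.07 percentage points over the sdAb#07.81 (24 h) group. In bulk RNA these shares are relative to all other transcripts, so more of these transcripts and less of the others cannot be told apart. Among the 50 genes with the highest means, 8 were ribosomal protein genes in the 24 h table and 15 in the sdAb-Con table, and among the highest 100 they were 22 and 33. Their median mean count was 10124 in the 24 h table and 13692 in the sdAb-Con table.

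The levels of single genes spread widely around that median, also per kilobase of the longest transcript, the scale on which genes can be compared. Rpl4, a large subunit protein that reaches into the exit tunnel, was highest with 32086 normalized counts per kilobase in the 24 h table and 41485 in the sdAb-Con table. It was followed in the sdAb-Con table by Rpl23a (38209), which lies at the tunnel exit, Rps3a1 (35835), Rpl19 (35283) and Rpsa (34863), the laminin receptor homolog of the small subunit. In the 24 h table the same genes led except that Rpl41 (25683) stood above Rpsa (25392). Rpl4 ranked 8 of all genes on this scale in the sdAb-Con table. Of the 100 highest genes per kilobase, 46 in the 24 h table and 50 in the sdAb-Con table were ribosomal protein genes. The lowest 4 of the 86 in both tables were Rpl29 (374 per kilobase in the 24 h table and 456 in the sdAb-Con table), Rps3a3 (254 and 354), Rpl21 (219 and 258) and Rpl32l (43.3 and 70.4). The next lowest was Rpl35a in the 24 h table, with 594 there and 937 in the sdAb-Con table, and Rpl7l1 in the sdAb-Con table, with 902 in the 24 h table and 742 there. The place of Rpl35a rests on the choice of length, since its longest transcript has 2858 bases and its longest protein-coding transcript 519, and by the latter or by the median length it was not among the 5 lowest in either table. The order of the highest genes after Rpl4 also changed with that choice. Rpl29 and Rpl21 are constituents of the ribosome in general, and Rpl21 is one of the genes with many counts in pseudogene rows.

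Rpl4 lies at chromosome 9, 64080657-64085948, as the tables list it, with a mean of 49348 in the 24 h table and 63804 in the sdAb-Con table. Rpsa, on the same chromosome at 119956755-119961435, had 49209 and 67564. These were the largest mean counts among the ribosomal protein genes of the large and the small subunit. The mouse build behind the tables' coordinates is not named in the sources used here. The 91 genes lie on 19 chromosomes, from 2 each on chromosomes 6, 13 and 18 to 14 on chromosome 7.

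**Figure D1:**
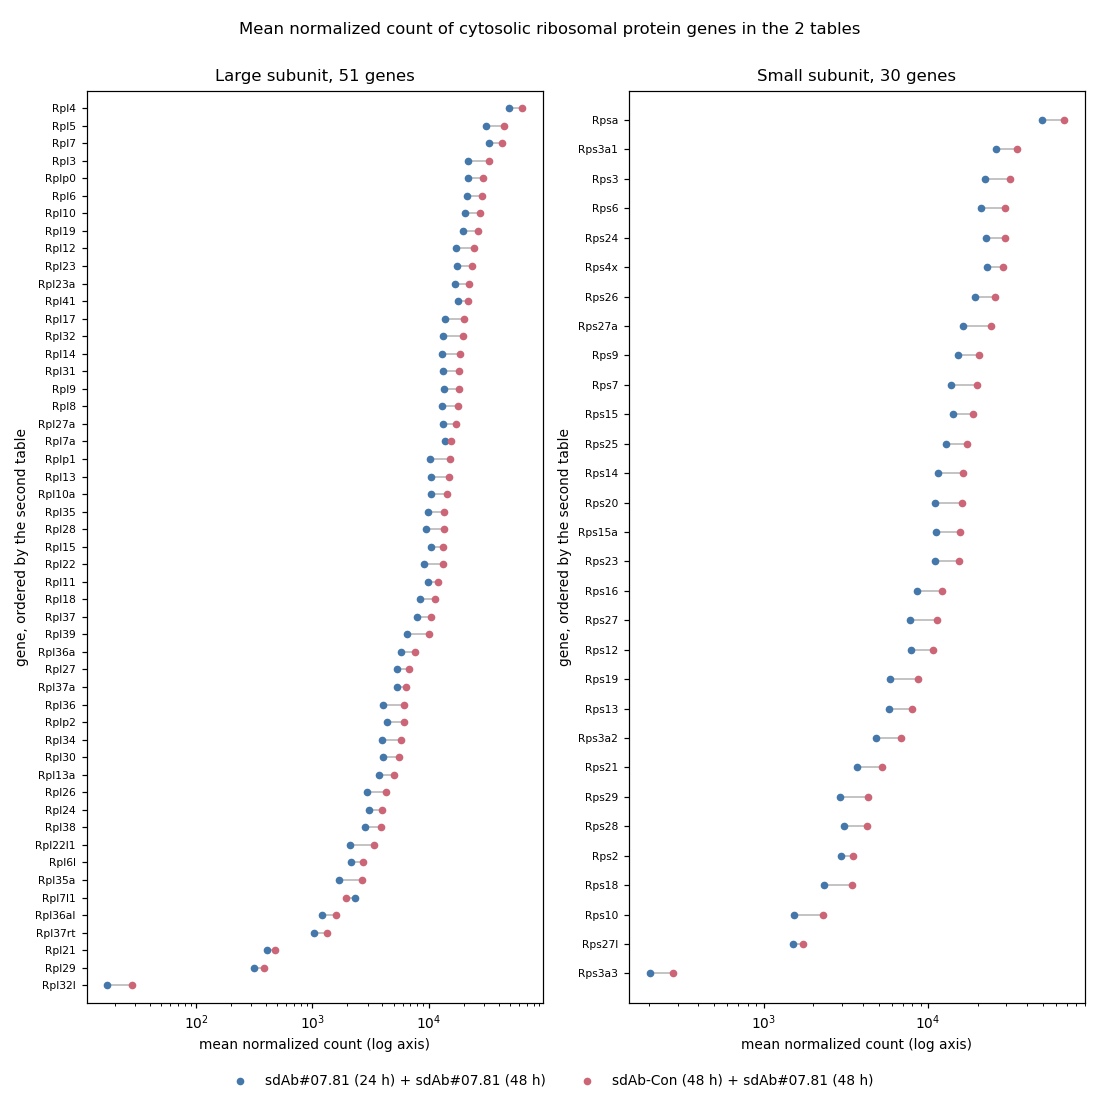
Mean normalized count (log axis) of 51 large subunit and 30 small subunit genes, in the table averaging sdAb#07.81 (24 h) with sdAb#07.81 (48 h) (blue) and the table averaging sdAb-Con (48 h) with sdAb#07.81 (48 h) (red). The red point lies to the right of the blue point for 80 of the 81 genes drawn, and Rpl7l1 is the exception.

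Between the tables, the ribosomal protein genes were higher in the sdAb-Con table almost without exception. Of the 86 genes, 85 had a higher mean in the sdAb-Con table, 81 by at least 1.2-fold, against 16.4% of all genes tested. A single gene, Rpl7l1, was at least 1.2-fold lower, against 25.5% of all genes, and none was when the tables were scaled to a median ratio of 1. The median log2 ratio of the sdAb-Con table over the 24 h table was 0.46, a fold of 1.38, where the median over all 13629 genes was -0.05. At a 1.1-fold threshold 85 of the 86 were higher, against 28.1% of all genes. At 1.5-fold 7 were higher, against 2.55%. Summed over the 86 genes, the mean count was 987122 in the 24 h table and 1348500 in the sdAb-Con table, a fold of 1.37. By the arithmetic of the averages, the sdAb-Con (48 h) libraries held on average 722752 more normalized counts on these genes than the sdAb#07.81 (24 h) libraries.

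**Figure D2:**
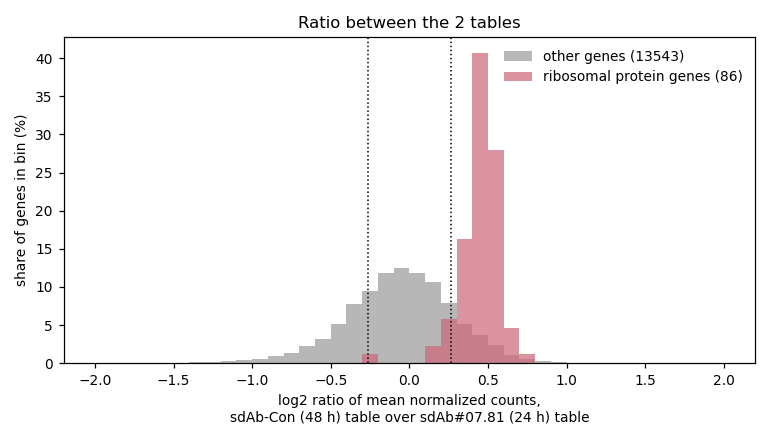
Share of genes (%) by log2 ratio of mean normalized counts, sdAb-Con (48 h) table over sdAb#07.81 (24 h) table, for 86 ribosomal protein genes (red) and 13543 other genes (grey), with dotted lines at a 1.2-fold difference and values beyond 2 drawn at the edge. The ribosomal protein genes form a narrow peak around their median of 0.46, while the other genes spread around -0.05.

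The medians of the 2 subunits were close. The 52 large subunit genes had a median log2 ratio of 0.44, with 49 at least 1.2-fold higher in the sdAb-Con table. The 34 small subunit genes had a median of 0.49, with 32 higher. The standard deviation of the log2 ratio over genes was 0.13 for the 86, against 0.35 over all genes tested. The counting error of a gene's mean in the 24 h table, which covers read sampling only, had a median of 0.497% and reached 12.03% for Rpl32l, the lowest gene kept.

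The genes past 1.5-fold were Rpl32l, Rpl22l1, Rpl35a, Rpl39, Rpl3, Rps10 and Rpl36, with folds from 1.51 to 1.63. Rpl22l1 had a mean of 2123 in the 24 h table and 3411 in the sdAb-Con table, a log2 ratio of 0.68. It is the paralog of Rpl22, can stand in for it in the ribosome, and lies at chromosome 3, 28859585-28861573. Rpl35a, a large subunit protein mutated in some patients with Diamond-Blackfan anemia, had 1698 and 2677, a log2 ratio of 0.66. Rpl39, a tiny protein of the exit tunnel, had 6565 and 10076, a log2 ratio of 0.62. Rpl3, which lies beside the peptidyl transferase center, had 21756 and 33054, a log2 ratio of 0.60. Rps10, a protein of the small subunit head, had 1523 and 2303, and Rpl36, a small protein of the large subunit, had 4069 and 6145. Rpl32l, a copy of Rpl32, had only 17.3 and 28.1, just above the minimum of 10.

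In the band from 1.4- to 1.5-fold lay 29 genes, 12 of the large and 17 of the small subunit. They included Rps19, Rpl32, Rps27a, Rplp1, Rps18, Rpl26, Rps29, Rps20, Rpl34, Rpl17, Rps27, Rpl13, Rpl22, Rps7, Rps14, Rpl12, Rps3a2, Rpl14, Rps3, Rpl28, Rps16, Rps21, Rpl5, Rps15a, Rps6 and Rps23, in falling order of fold from 1.48. Rps19, the gene most often mutated in Diamond-Blackfan anemia, had 5844 and 8666. Rps6, whose protein is phosphorylated by the kinases downstream of mTORC1, had 20957 and 29500. Rpl5, which joins 5S ribosomal RNA and binds Mdm2 when free of the ribosome, had 31490 and 44459.

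The band from 1.3- to 1.4-fold was the fullest with 35 genes, 22 of the large and 13 of the small subunit. In falling order of fold it included Rplp2, Rps3a3, Rpl38, Rps13, Rpl31, Rps28, Rpl35, Rpsa, Rpl30, Rps12, Rpl10, Rpl8, Rps3a1, Rpl13a, Rpl10a, Rpl18, Rpl9, Rplp0, Rps25, Rps9, Rpl19, Rpl23a, Rpl23, Rps15, Rpl6, Rpl36al, Rps26, Rpl36a, Rpl37, Rpl37rt, Rps24, Rpl24 and Rpl27a. Their means ran from 202 (Rps3a3) to 49209 (Rpsa) in the 24 h table. Between 1.2- and 1.3-fold lay Rpl4, Rpl7, Rpl15, Rpl6l, Rpl27, Rps4x, Rpl41, Rpl11, Rpl29 and Rpl37a, 10 genes from 1.29 down to 1.21. Only Rps4x among them belongs to the small subunit.

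The 4 genes under 1.2-fold in either direction were Rps2, Rpl21, Rps27l and Rpl7a, all of them higher in the sdAb-Con table. Rps2, a protein at the mRNA entry channel, had 2938 and 3480, a log2 ratio of 0.24. Rpl21 had 406 and 479, also 0.24. Rps27l, a paralog of Rps27 that p53 induces, had 1510 and 1726, a log2 ratio of 0.19. Rpl7a, a protein of the large subunit surface, had 13846 and 15640, a log2 ratio of 0.18.

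Rpl7l1, the only gene that was lower, had a mean of 2350 in the 24 h table and 1933 in the sdAb-Con table, a log2 ratio of -0.28. It lies at chromosome 17, 47084833-47093598, on the minus strand. Its relative Rpl7 had 33371 and 43075, a log2 ratio of 0.37, so the 2 genes lay on opposite sides of 0. The Rpl7l1 start shown above holds no tract by the search used. The same holds for 32 of the genes tested, Rpl7l1 included, whose median log2 ratio was 0.43. Rpl39, at 0.62 among the most positive, is also one of these.

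The stalk proteins recruit the elongation factors to the large subunit. Rplp0, which anchors the stalk, had 21657 in the 24 h table and 29189 in the sdAb-Con table, a log2 ratio of 0.43. Rplp1 had 10309 and 15213, a log2 ratio of 0.56, and Rplp2 had 4377 and 6109, a log2 ratio of 0.48. All 3 were higher in the sdAb-Con table.

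Paralog pairs differed in level, and some of them in ratio. Rpl22 had 9165 and 13222, a log2 ratio of 0.53, beside the 0.68 of Rpl22l1. Rps27 had 7801 and 11266, a log2 ratio of 0.53, beside the 0.19 of Rps27l. Rpl36a had 5769 and 7590, a log2 ratio of 0.40, and Rpl36al, a copy that arose by retrotransposition, had 1210 and 1599, also 0.40. Rps3a1 had 25746 and 35010, a log2 ratio of 0.44, while its copies Rps3a2 and Rps3a3 had 4818 and 6874, and 202 and 281. Rpl10 had 20416 and 27876, a log2 ratio of 0.45, and Rps4x, which is X-linked, had 22932 and 28513, a log2 ratio of 0.31. The tissue-restricted partners were near 0: Rpl3l, a muscle gene, was at 0.50 and 0.26, Rpl10l, a testis gene, at 0.55 and 0.78, Rpl39l, known from testis, at 0.26 and 0.25, and Rps4l at 1.98 and 2.93. These 4 and Rps23rg1 (5.94 and 7.98), a copy of Rps23 that lay just outside the minimum, are the 5 genes that were not kept. Leaving out the 9 paralogs and copies among the 86, all 77 others were higher in the sdAb-Con table, 74 of them by at least 1.2-fold, with a median log2 ratio of 0.46.

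Near-identical pseudogenes share sequence with these genes, and how reads were split between them is not given in the sources used here. The tables listed 196 ribosomal protein pseudogene rows, counting only symbols marked -ps, and 92 of them had a mean of at least 10 in both tables. Of those 92, 81 were at least 1.2-fold higher in the sdAb-Con table and 1 was lower, against 16.4% and 25.5% of all genes, with a median log2 ratio of 0.51. Their median length was 532 bases, and genes outside the ribosomal protein set with longest transcripts of 500 to 1000 bases had a median log2 ratio of 0.17. For 12 of the 86 genes more than 10% of the combined counts stood in pseudogene rows in the sdAb-Con table. The share was 85.2% for Rps2, 61.2% for Rps10, 56.9% for Rps18, 38.9% for Rpl21, 30.1% for Rps7 and 26.0% for Rpl3, and the levels of these genes are uncertain. Copies under other names were left out of these shares. Rps3a1, Rpl37 and Rpl6 thus stand among the 54 genes with under 1% in pseudogene rows, as do their copies Rps3a2, Rps3a3, Rpl37rt and Rpl6l. Rps3a2 alone had 6874 in the sdAb-Con table, beside 35010 for Rps3a1. In the 54 genes the median log2 ratio was 0.45, and in the other genes 0.47.

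Ribosomal proteins Fau and Rack1, which escape the naming rule, had ratios of the same size. Fau, the precursor of the small subunit protein eS30, had 4155 in the 24 h table and 5539 in the sdAb-Con table, a log2 ratio of 0.41. Rack1, a scaffold on the small subunit head, had 24661 and 35274, a log2 ratio of 0.52.

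A list of other transcripts known to carry a TOP tract held higher genes as well. Of 21 such genes, 13 were at least 1.2-fold higher in the sdAb-Con table and 1 was lower, against 16.4% and 25.5% of all genes, with a median log2 ratio of 0.33. The translation elongation factor genes Eef1a1 (219548 and 277245, log2 ratio 0.34), Eef1b2 (0.45), Eef1g (0.42) and Eef2 (0.45) were among those higher, while Eef1d was at 0.07. Of the eIF3 subunit genes, Eif3f (0.50), Eif3k (0.39), Eif3h (0.38), Eif3m (0.27) and Eif3e (0.27) were higher and Eif3l was at -0.04. Gas5, the host gene of small nucleolar RNAs, had 4637 and 7841, the highest log2 ratio of the list at 0.76. Snhg1, another such host gene, was at 0.50, Tpt1, the translationally controlled tumor protein gene, at 0.52, and Btf3 at 0.33. The genes within 1.2-fold also included Naca (0.21), Pabpc1 (0.14), Npm1 (0.14), Nap1l1 (0.11) and Eif4b (0.09), and Hnrnpa1, a splicing factor, was lower at -0.28.

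**Figure D3:**
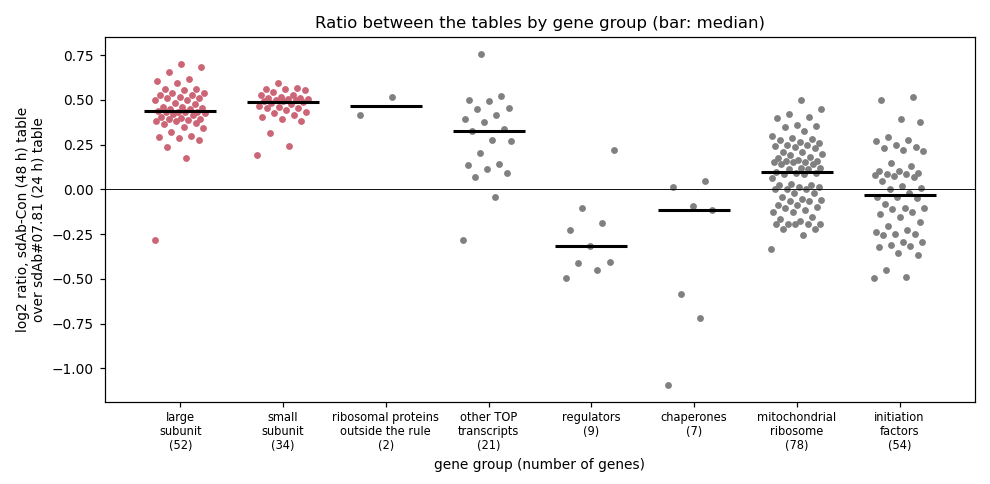
Log2 ratio of mean normalized counts, sdAb-Con (48 h) table over sdAb#07.81 (24 h) table, for each gene of 8 groups, with a bar at the median and the number of genes under each name. The medians run from 0.49 (small subunit) and 0.44 (large subunit) over 0.33 (other TOP transcripts) and 0.10 (mitochondrial ribosome) to -0.31 (regulators).

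Of a list of 9 known regulators of ribosomal protein synthesis, 8 had a log2 ratio below 0, as did 7618 of all 13629 genes tested. Of the 9, none was at least 1.2-fold higher in the sdAb-Con table and 5 were lower, against 16.4% and 25.5% of all genes, with a median log2 ratio of -0.31. Their median length was 5784 bases, and genes outside the ribosomal protein set of 5000 bases or more had a median log2 ratio of -0.21. Myc had 5713 in the 24 h table and 4052 in the sdAb-Con table, a log2 ratio of -0.50. Larp1, the TOP mRNA-binding protein, had 6213 and 4665, a log2 ratio of -0.41, and Larp4, which binds the poly(A) end, had 2699 and 1976, -0.45. Mtor, the kinase itself, had 1396 and 1122, -0.31, and Rps6kb1, the S6 kinase, had 1859 and 1403, -0.41. Rptor (-0.19), Rps6kb2 (-0.10) and Eif4ebp2 (-0.22) were within 1.2-fold, as was Eif4ebp1, the sole positive value at 0.22. Mycn was listed in 1 table, with a mean of 0.23. These are transcript levels and say nothing of kinase activity.

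Chaperones that guard single ribosomal proteins on their way to the nucleolus, and other factors of subunit assembly, had a median log2 ratio of -0.11. Of 7 genes, none was at least 1.2-fold higher in the sdAb-Con table and 3 were lower, against 16.4% and 25.5% of all genes, which is too few genes to set the list apart from that background. Heatr3, which helps import Rpl5 into the nucleus, had 974 and 457, a log2 ratio of -1.09. Grwd1, the chaperone of Rpl3, had 375 and 228, a log2 ratio of -0.72, and Rrs1, which brings Rpl5 and Rpl11 into the early large subunit, had 1033 and 690, -0.58. Tsr2 (-0.11), Ltv1 (-0.09), Aamp (0.01) and Bccip (0.04) were within 1.2-fold. Rpl3, Rpl5 and Rpl11 themselves were at 0.60, 0.50 and 0.29.

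The genes of the mitochondrial ribosome, named Mrpl and Mrps, form a separate ribosome and served as a contrast. Of 78, 14 (17.9%) were at least 1.2-fold higher in the sdAb-Con table, against 16.4% of all genes, and 1 (1.28%) was lower, against 25.5%, with a median log2 ratio of 0.10. Of 54 genes named Eif with a digit, 7 (13.0%) were higher and 10 (18.5%) lower, with a median of -0.03. This set was taken by name for the translation initiation factors, some of which are among the TOP transcripts above. The name also brings in Eif4ebp1 and Eif4ebp2 of the regulator list. The mitochondrial ribosomal protein genes were thus near all genes in their share of higher genes, and near those of the cytosolic ribosome, 1 of 86, in their share of lower genes. Their median length was 1866.5 bases, against 3161 for all genes tested. Genes of 1000 to 2000 bases outside the cytosolic ribosomal protein set had a median log2 ratio of 0.09.

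Transcript length moved with the ratio between the tables over all genes. The median log2 ratio of other genes was 0.17 for longest transcripts under 500 bases and fell to -0.21 for those of 5000 bases or more. The 86 ribosomal protein genes had a median length of 1054 bases, against 3161 for all genes tested. Within bins of length, the medians of the ribosomal protein genes ran from 0.43 to 0.56 and lay above those of the other genes in each of the 6 bins, of which the longest held 1 gene and the next 3. Among 1651 other genes in the middle of the ribosomal protein genes' length range, 799 to 1613 bases, the median was 0.11 and 30.2% were at least 1.2-fold higher. Among the 36 of them that were also above the lower quartile of the ribosomal protein genes' mean counts, the median was 0.23 and 18 were higher. The 389 other genes of that abundance and any length had a median of 0.02. The part of length in the difference between the tables was not tested.

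**Figure D4:**
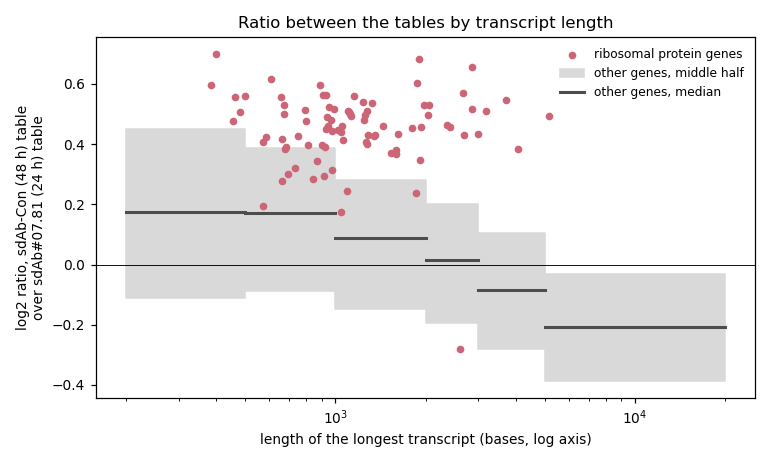
Log2 ratio of mean normalized counts, sdAb-Con (48 h) table over sdAb#07.81 (24 h) table, against the length of the longest transcript (bases, log axis), for 86 ribosomal protein genes (red points) and for other genes by length bin (black line, median, and grey band, middle 50%). The medians of other genes fall from 0.17 to -0.21 with length, and the ribosomal protein genes lie between 0.18 and 0.70 at all lengths except Rpl7l1 at -0.28.

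Ribosomal protein genes with and without a TOP tract in the window had medians close to each other. The 31 genes tested with a tract near at least 1 RefSeq start had a median log2 ratio of 0.48, and the 32 without had 0.43. Rps10 and Rpl35a, whose starts are printed above, were among the most positive, but Rpl7a, with a long tract, was among the least. Among the 9717 other genes tested that had a promoter entry, the medians were -0.04 with the tract (1857 genes) and -0.06 without it (7860 genes). Of the list of other TOP transcripts, 15 had an entry and the search found the tract in 5 of them, and in 3 on the opposite strand. Their median log2 ratio was 0.34 with the tract and 0.36 without it.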

How the data were processed

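The authors sequenced total RNA of 4T1 cells by paired-end Illumina sequencing. The submitters' processing notes name cutadapt 1.9.1, HISAT2 2.0.1 and HTSeq 0.6.1, and a human build, although the gene identifiers are mouse. The authors deposited 2 tables of comparisons. The only value used was the deposited signal per gene, a mean over 4 libraries of counts divided by size factors, which lay between 0.916 and 1.09. The tables' fold changes, log2 fold changes, standard errors, statistics and p-values hold the authors' own comparisons and were not used. A group abbreviated in a table's name by a term the labels do not use was taken as sdAb-Con (48 h), the only other 48 h group. The Con group was not analysed here.

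Genes were joined by identifier, kept at a mean of at least 10 in both tables, and compared by the log2 ratio of the means with a threshold of 1.2-fold. No test was run, since the means used carry no values per library. Transcript lengths came from GENCODE M21 and start windows from RefSeq. Named genes were the 5 highest and 5 lowest per kilobase, the 5 most positive and most negative ratios, all past 1.2-fold, and the stalk, paralog and list genes. The members and lists were chosen with earlier results of these data known. The ratio script was tested on simulated data. Python 3.11.15, numpy 2.4.6 and pandas 2.3.3 were used. Some genes of the rule and of the lists are not reported here by name.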

Additional observations from a re-analysis of the deposited data

How the results depend on the processing

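No paired analysis was possible because neither table holds a value for a single library, and for the same reason no replicate could be left out. The median log2 ratio moved from 0.46 to 0.51 when the tables were scaled to a median ratio of 1, and 83 genes were then past 1.2-fold, all higher in the sdAb-Con table, against 82 as deposited, so that Rpl7l1 was no longer past the threshold. At 1.5-fold 7 were past the threshold. Without mitochondrial genes, over protein-coding genes only, and with Fau and Rack1, a choice of genes made after seeing the data, the share was 5.66%, 5.72% and 5.68% in the 24 h table and 7.76%, 7.85% and 7.78% in the sdAb-Con table. The median level per kilobase, 8146 and 10959 by the longest transcript, was 15916 and 21968 by the median transcript length and 11634 and 16046 by the longest protein-coding transcript of the 81 genes that have one, an alternative chosen after seeing the data. A length listed in the tables could not be tried, since they list none for transcripts. Equal sums, other minima and the other gene choices left the median at 0.46. Genes near the minimum, such as Rpl32l, are limited by depth.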
